A study of Homo sapiens with 4 samples.

Results

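Long non-coding RNAs that stay in the nucleus and non-coding genes that host small nucleolar RNAs (snoRNAs) were followed in HEK293 cells with and without an edited HEMK1 gene. The 10 genes were taken as a list by symbol, matched to Ensembl identifiers, from the 78686 features counted in each library. They are 3 nuclear retained RNAs (MALAT1, NEAT1 and KCNQ1OT1) and 7 snoRNA hosts (GAS5, ZFAS1, SNHG1, SNHG5, SNHG6, SNHG8 and EPB41L4A-AS1). All 10 matched 1 identifier each and all 10 had enough counts to be tested.

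The study compared polyadenylated RNA of HEMK1 KO cells (2 libraries) and WT cells (2 libraries). HEK293 is an established human line that came from embryonic kidney cells and has an abnormal chromosome number, and HEMK1 is a methyltransferase of mitochondrial translation release factors. The KO cells were edited with a pool of 2 Cas9 plasmids that carry different guides and were grown from 1 sorted cell (clone 1F8), so editing of HEMK1 and anything else peculiar to the clone cannot be told apart. The WT cells are described only as the HEK293 line, with no separate clone or mock transfection named, and both groups grew in the same serum-containing medium with no further agent. The labels speak of biological replicates without saying whether these were separate cultures, so p-values measure only the spread between these libraries.

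Nuclear retained RNAs are transcribed like mRNAs but remain beside the genome. MALAT1 gathers in nuclear speckles, NEAT1 is the scaffold of paraspeckles, and KCNQ1OT1 silences neighbouring genes of an imprinted domain in cis. A snoRNA host is transcribed and spliced, the snoRNAs are trimmed out of its introns to guide chemical modification of ribosomal and other RNAs, and the spliced host RNA is exported. Many hosts begin with a run of pyrimidines like the mRNAs of ribosomal proteins, and many spliced host RNAs are degraded by nonsense-mediated decay once ribosomes meet their short reading frames.

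Total counts were 2856784 and 3202039 in the KO libraries and 2476471 and 2671594 in the WT libraries, and 20530 to 21639 features had at least 1 count. HEMK1 itself had 1 and 7 counts in KO libraries, against 6 and 9 counts in WT libraries, too few to be tested or to check the genotypes. Of the HEK293 and epithelial markers, KRT8, KRT18 and VIM were measured in every library, PAX2 was at 0 counts in all 4 libraries, and INA and L1CAM had 1 count each in all. The whole list of 8 summed to 164 and 124 CPM in KO libraries, against 228 and 204 CPM in WT libraries. KRT8, KRT18 and VIM were each lower in both KO libraries than in both WT libraries, where 18.0% of all tested genes were. Their log2 fold changes were −0.59, −0.83 and −0.57, and none was called (smallest adjusted p = 0.332 by edgeR). NEFM went the other way, with 10 and 13 counts in KO libraries and 6 and 5 counts in WT libraries. TUBB2B overlapped, with 10 and 2 counts in KO libraries and 8 and 13 counts in WT libraries. NEFM and TUBB2B had too few counts to be tested. The summed level of blood and immune cell markers was 3.13 and 12.6 CPM in KO libraries and 0 and 0.372 CPM in WT libraries. Those of fibroblasts summed to 43.8 and 33.2 CPM in KO libraries and 30.3 and 26.4 CPM in WT libraries, and those of endothelium to 0.696 and 0.966 CPM in KO libraries and 0.831 and 1.11 CPM in WT libraries. The part of these markers in the results was not tested. CPM stands for counts scaled to a common library total after TMM scaling, a correction for differences in RNA composition.

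WT replicate 2 stood apart from the other 3 libraries in the balance of the 2 kinds of RNA. For each KO or WT library, the summed counts of the nuclear RNAs were divided by the summed counts of the hosts. The quotient was 11.4 and 9.18 in KO libraries, against 9.52 and 20.6 in WT libraries. Values that rest on WT replicate 2 are therefore given below with and without it.

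No listed gene differed between KO and WT libraries at an adjusted p under 0.05 (edgeR's quasi-likelihood test, Benjamini-Hochberg adjustment over 10670 tested genes), where 0.328% of all tested genes did, 0.0469% higher and 0.281% lower in KO libraries. DESeq2 called 0 of the 10 as well. In simulated counts the edgeR test missed most genes that differed by a factor of 1.5. The lack of calls therefore says little about changes of that size. At an unadjusted p under 0.05 edgeR marked 1 of the 10, NEAT1, on the lower side, where 8.43% of all tested genes were marked and 4.35% were marked lower. DESeq2 marked MALAT1 instead of NEAT1 at that threshold, also on the lower side, so the gene marked depended on the test. The fitted log2 fold change of KO over WT was below 0 for 3 of 3 nuclear RNAs, with a median of −0.44. For the hosts it was below 0 in 4 of 7, with a median of −0.00020. The median over all tested genes was 0.00919. Without WT replicate 2 the order of the classes turned round. The median was then −0.24 for the nuclear RNAs, again with 3 of 3 below 0. For the hosts it was −0.47, with 6 of 7 below 0. Without WT replicate 1 the order held and the gap widened, with medians of −0.63 for the nuclear RNAs and 0.42 for the hosts. In that case 3 of 3 nuclear RNAs and 3 of 7 hosts lay below 0. In 4 of the 10 genes (NEAT1, KCNQ1OT1, ZFAS1 and SNHG5) both KO libraries lay below both WT libraries, where 18.0% of all tested genes did. In 0 of the 10 did both KO libraries lie above both WT libraries, where 21.2% of all tested genes did. In these bulk libraries a change in the number of cells of a type and a change in RNA per cell cannot be told apart.

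**Figure D1:**
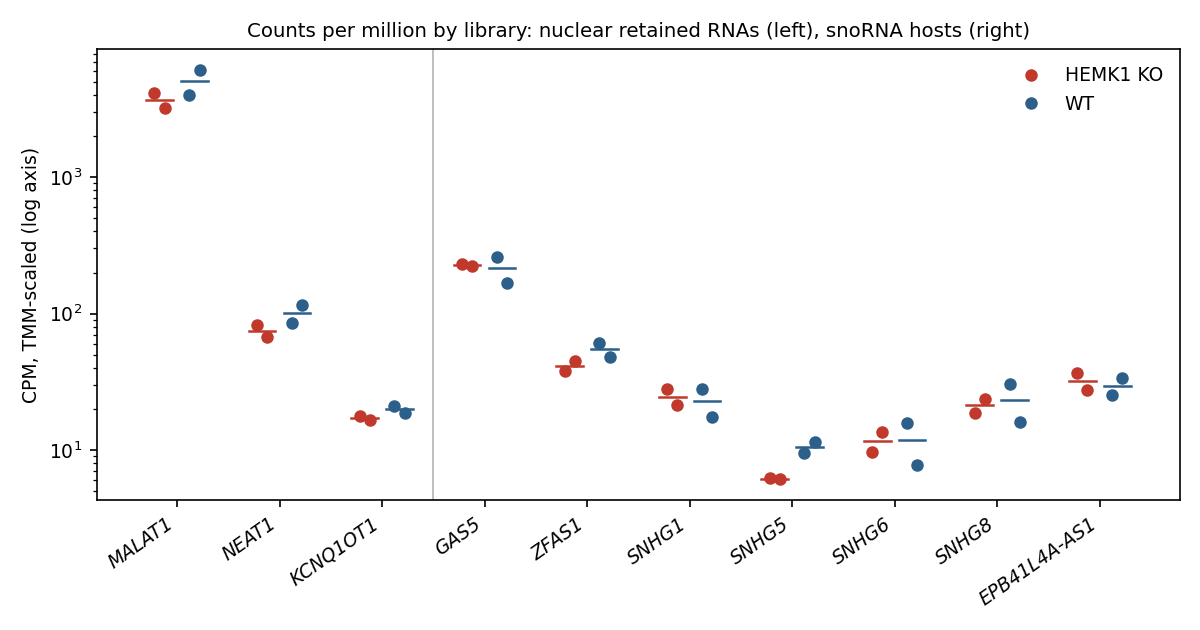
TMM-scaled CPM (log axis) of the 3 nuclear retained RNAs and the 7 snoRNA hosts in each library, with HEMK1 KO libraries in red left of WT libraries in blue; dots are libraries and short lines are group means (n = 2 each). MALAT1 lies at 3215 CPM or more in every library, and the KO dots of NEAT1, KCNQ1OT1, ZFAS1 and SNHG5 lie below their WT dots.

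MALAT1 (ENSG00000251562.13) is a single-exon RNA on the plus strand of chr11:65497688-65506516 (GRCh38, GENCODE 29), with 8829 exon bases. Its end is not made by the usual poly(A) machinery: RNase P cuts in front of a tRNA-like small RNA and leaves an A-rich end that folds into a triple helix. NEAT1 (ENSG00000245532.13), on the plus strand of chr11:65422774-65445540 with 22767 exon bases, ends in the same manner in its long form and has a short polyadenylated form. The sites of that cut are printed because the A-rich end of MALAT1 is encoded in the genome, unlike an ordinary poly(A) tail. For MALAT1 the stretch lies before the annotated end of the gene, and for NEAT1 it is the annotated end. They are written 5′ to 3′ from the GENCODE 29 transcripts, from chr11:65506047-65506136 for MALAT1 and chr11:65445471-65445540 for NEAT1, and the capitals mark the longest run of A in the stretch shown.
MALAT1: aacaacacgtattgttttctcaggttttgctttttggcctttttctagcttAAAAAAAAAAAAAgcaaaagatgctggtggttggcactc
NEAT1: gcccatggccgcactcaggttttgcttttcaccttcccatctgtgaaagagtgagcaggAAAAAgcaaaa
The run in MALAT1 has 13 bases, and 3.15% of 83874 non-coding transcripts of the annotation hold a run at least as long anywhere. The run in the NEAT1 stretch has 5 bases, and 61.38% of the same transcripts hold a run at least as long. Over the whole transcript the longest run of A was 13 bases in MALAT1 and 22 bases in NEAT1. The tRNA-like gene of MALAT1 is annotated at chr11:65506117-65506173 and begins inside its stretch. That of NEAT1 begins at the next base after the NEAT1 stretch.

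MALAT1 had 4101 and 3215 CPM in KO libraries, against 3995 and 6120 CPM in WT libraries. KO replicate 1 lay between the 2 WT libraries and WT replicate 2 was the highest of all, so the groups overlapped. The means were 3658 ± 627 CPM in KO libraries and 5058 ± 1503 CPM in WT libraries (SD, n = 2 each). The fitted fold of KO over WT was 0.723, with a 95% interval of 0.521 to 1.00 (log2 fold change −0.47 ± 0.21, SE; adjusted p = 0.594 by edgeR). Without WT replicate 2 the log2 fold change was −0.16 ± 0.16, and without WT replicate 1 it was −0.74. The authors' deposited table gives −0.46 with an adjusted p of 0.999988 by DESeq2.

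NEAT1 had 82.5 and 67.0 CPM in KO libraries, against 86.0 and 116 CPM in WT libraries. Both KO libraries were lower than both WT libraries, but KO replicate 1 and WT replicate 1 lay close together. The fold was 0.739, with a 95% interval of 0.552 to 0.988 (log2 fold change −0.44 ± 0.19, SE; adjusted p = 0.567 by edgeR). When WT replicate 2 was left out, the log2 fold change was −0.24 ± 0.22. DESeq2 gave −0.43 ± 0.27 (SE) with all 4 libraries, a larger error than that of edgeR.

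KCNQ1OT1 (ENSG00000269821.2), the antisense RNA of the KCNQ1 locus, lies on the minus strand of chr11:2608328-2699994. It had 17.7 and 16.7 CPM in KO libraries, against 21.2 and 18.6 CPM in WT libraries, from 50 to 52 counts per library. The KO libraries were lower than the WT libraries by a margin within the error of the fit, and the fold was 0.869 with a 95% interval of 0.591 to 1.28 (adjusted p = 0.902 by edgeR). Its log2 fold change was −0.33 ± 0.31 without WT replicate 2. KCNQ1, the potassium channel gene it overlaps, had 0 counts in all 4 libraries.

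Reads from MALAT1 also raise a question of strand, since TALAM1, its annotated antisense RNA, had nearly the same counts. RefSeq places MALAT1 at chr11:65497738-65506516 and TALAM1 at chr11:65499312-65507432 of GRCh38, with 7205 bases in common. MALAT1 had 11786 and 9981 counts in KO libraries and 9619 and 16471 counts in WT libraries. TALAM1 had 11774 and 10274 counts in KO libraries and 9684 and 16930 counts in WT libraries. The part of MALAT1 in the sum was 50.03% (95% Wilson interval 49.4% to 50.7%) and 49.3% (48.6% to 49.97%) in KO libraries, against 49.8% (49.1% to 50.5%) and 49.3% (48.8% to 49.8%) in WT libraries. The strand setting of the counting is not given in the sources used here. Which strand the reads came from, and whether any were counted for both genes, therefore cannot be told. The intervals above hold only if no read was counted for both genes. The log2 fold change for TALAM1 was −0.48 ± 0.22 (SE; edgeR adjusted p = 0.589), and it is no second measurement of MALAT1.

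**Figure D2:**
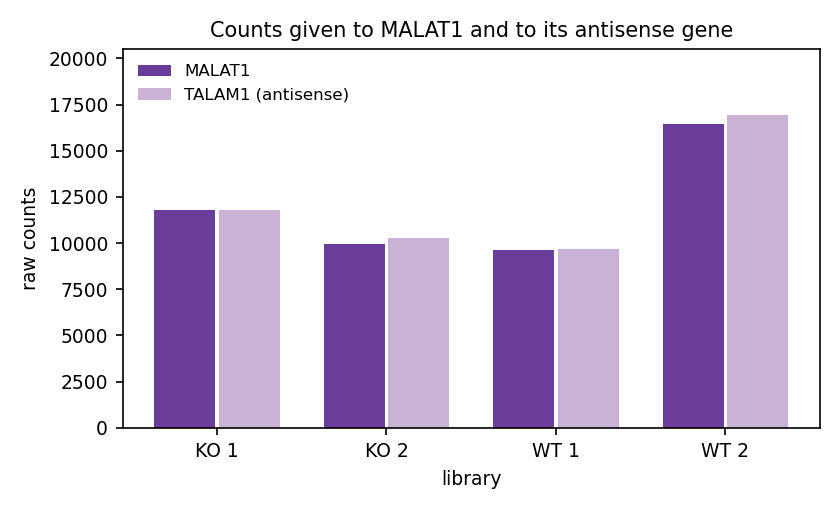
Raw counts of MALAT1 (dark bars) and of its antisense gene TALAM1 (pale bars) in each library, KO libraries left of WT libraries. The 2 bars of each library are nearly equal, from 9619 against 9684 in WT replicate 1 to 16471 against 16930 in WT replicate 2.

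Since many hosts are known for pyrimidines at their start, the start regions were compared. The stretches printed run from 30 bases before to 50 bases after the annotated start (RefSeq, GRCh38.p14), and the capitals mark the longest run of C and T that lies within 10 bases of the start. ZFAS1 is from the plus strand of chr20:49278612-49278691, SNHG1 from the minus strand of chr11:62855836-62855915, SNHG5 from the minus strand of chr6:85678684-85678763 and SNHG8 from the plus strand of chr4:118278732-118278811.
ZFAS1: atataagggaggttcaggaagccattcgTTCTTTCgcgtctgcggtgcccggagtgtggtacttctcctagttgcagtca
SNHG1: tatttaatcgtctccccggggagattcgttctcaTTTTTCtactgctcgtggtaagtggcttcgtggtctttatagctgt
SNHG5: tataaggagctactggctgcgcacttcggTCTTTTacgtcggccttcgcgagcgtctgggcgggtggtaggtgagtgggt
SNHG8: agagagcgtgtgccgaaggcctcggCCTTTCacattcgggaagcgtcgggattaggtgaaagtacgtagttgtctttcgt
Counted inside that window alone, the run was 7 bases in ZFAS1 and 6 bases in SNHG1, SNHG5 and SNHG8, and in SNHG1 it goes on past the edge of the window. So 4 of 6 hosts with an entry had a run of at least 6, against 22.17% of 35116 promoters. In EPB41L4A-AS1 the run was 4 bases, the median of all promoters. In GAS5 it was 3 bases, but its RefSeq stretch, chr1:173868996-173869075, lies wholly upstream of the GENCODE 29 gene, so the start of GAS5 was not settled here. MALAT1, which is no host, has 2 listed promoters, with a run of 11 bases in the first and 2 bases in the second. The letters TATAA, searched on both strands in the 50 bases before the start, were found for ZFAS1, SNHG5, SNHG8 and the second promoter of MALAT1 and in 6.08% of all promoters. ZFAS1 and SNHG5, in which the KO libraries lay below the WT libraries, carry both features, and so does SNHG8, in which the groups overlapped.

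SNHG5 (ENSG00000203875.14, minus strand of chr6:85660950-85678748) hosts box C/D snoRNAs of the SNORD50 family. It had 6.26 and 6.12 CPM in KO libraries, against 9.55 and 11.5 CPM in WT libraries. The 2 KO libraries were nearly equal and both lay below both WT libraries, from 18 and 19 counts in KO libraries and 23 and 31 counts in WT libraries. Its fold, 0.588 with a 95% interval of 0.339 to 1.02, was the furthest from 1 of the 10 genes (log2 fold change −0.77 ± 0.36, SE; adjusted p = 0.595 by edgeR). With WT replicate 2 left out the log2 fold change was −0.65 ± 0.44, and without WT replicate 1 it was −0.89.

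ZFAS1 (ENSG00000177410.14, plus strand of chr20:49278178-49295738) hosts the SNORD12 snoRNAs and runs antisense to the 5′ end of ZNFX1. ZFAS1 had 37.9 and 45.1 CPM in KO libraries, against 61.0 and 48.3 CPM in WT libraries. The groups did not overlap, although KO replicate 2 and WT replicate 2 came close. The fold was 0.761, with a 95% interval of 0.557 to 1.04 (log2 fold change −0.39 ± 0.21, SE; adjusted p = 0.647 by edgeR). Without WT replicate 2 the log2 fold change was −0.59 ± 0.24, and without WT replicate 1 it was −0.22. ZNFX1, which lies on the other strand, had 189 and 219 counts in KO libraries and 155 and 174 counts in WT libraries, and 46.95% of the exon bases of ZFAS1 are overlapped by other genes.

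GAS5 (ENSG00000234741.11, minus strand of chr1:173863900-173868882), a host of many box C/D snoRNAs named for its rise in growth-arrested cells, had 230 and 222 CPM in KO libraries, against 260 and 168 CPM in WT libraries. Both KO libraries lay between the 2 WT libraries. The means were 226 ± 5.75 CPM in KO libraries and 214 ± 65.1 CPM in WT libraries (SD, n = 2 each), and the fold was 1.06 with a 95% interval of 0.793 to 1.41 (adjusted p = 0.951 by edgeR). The log2 fold change was −0.24 ± 0.13 without WT replicate 2, against 0.08 ± 0.19 with all 4 libraries. Without WT replicate 1 it was 0.43, so the sign turned on which WT library was kept.

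SNHG1 (ENSG00000255717.10, minus strand of chr11:62851988-62855914), the host of SNORD22 and SNORD25 to SNORD31, had 27.8 and 21.3 CPM in KO libraries, against 28.2 and 17.5 CPM in WT libraries. The 2 KO libraries lay between the 2 WT libraries, with a fold of 1.08 and a 95% interval of 0.704 to 1.65 (adjusted p = 0.958 by edgeR). SNHG6 (ENSG00000245910.10, chromosome 8), the host of SNORD87, had 9.74 and 13.5 CPM in KO libraries, against 15.8 and 7.80 CPM in WT libraries. Here too the KO libraries lay between the WT libraries, and the fold was 1.00 with a 95% interval of 0.497 to 2.01 (adjusted p = 0.9999 by edgeR). The SE behind that interval was derived from a fold change at 0, where it is unstable. It was 0.46 in log2 units in the main fit and 0.37 to 0.38 under other scalings.

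SNHG8 (ENSG00000269893.11, plus strand of chr4:118278709-118279823), the host of the H/ACA snoRNA SNORA24, had 18.8 and 23.8 CPM in KO libraries, against 30.3 and 16.0 CPM in WT libraries. Both KO libraries lay between the WT libraries, with a fold of 0.930 and a 95% interval of 0.580 to 1.49 (adjusted p = 0.966 by edgeR). EPB41L4A-AS1 (ENSG00000224032.10, plus strand of chr5:112160526-112164276), the host of SNORA13, had 36.5 and 27.4 CPM in KO libraries, against 25.3 and 33.8 CPM in WT libraries. The groups overlapped, with a fold of 1.08 and a 95% interval of 0.743 to 1.56 (adjusted p = 0.950 by edgeR). Of its exon bases 49.61% are overlapped by other genes, and EPB41L4A on the other strand had 112 and 105 counts in KO libraries and 77 and 78 counts in WT libraries. EPB41L4A-AS1 made up 48.4% and 44.7% of the sum of both genes in KO libraries, against 44.2% and 53.8% in WT libraries, so the doubt about strand raised for MALAT1 holds for this pair as well. Without WT replicate 2 the log2 fold changes were −0.24 for SNHG1, −0.47 for SNHG6, −0.54 for SNHG8 and 0.30 for EPB41L4A-AS1. Without WT replicate 1 they were 0.49, 0.58, 0.42 and −0.08 in the same order.

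**Figure D3:**
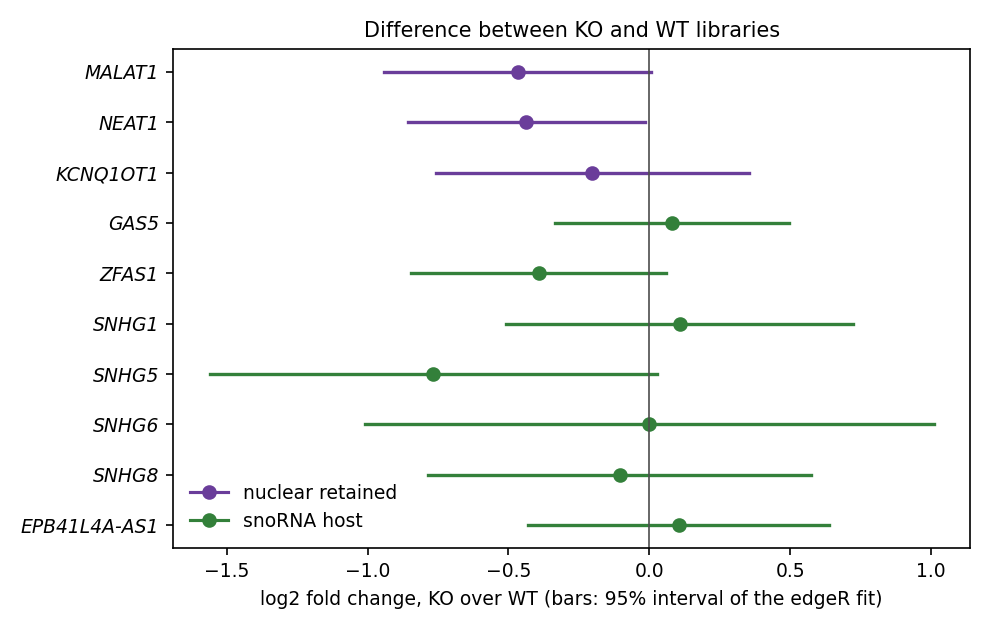
Fitted log2 fold change of KO over WT for each gene (dots) with its 95% interval from the edgeR fit (bars), nuclear retained RNAs in purple and snoRNA hosts in green. Every interval except that of NEAT1 includes 0. The widest drawn is that of SNHG6, whose SE was smaller under other scalings.

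The snoRNAs themselves could not be followed in these counts. GENCODE 29 places 14 small RNA genes inside 6 of the 7 hosts. It places none inside GAS5, although GAS5 is known as a host of many. No count was found for any of the 14 in the 4 libraries. A gene missing from the counted features was also entered as 0. They are small structured RNAs without a poly(A) tail, shown here for 1 snoRNA each of SNHG5, SNHG1 and ZFAS1 from GENCODE 29, on chromosomes 6, 11 and 20, with boxes C (TGATGA) and D (CTGA) in capitals.
SNORD50B: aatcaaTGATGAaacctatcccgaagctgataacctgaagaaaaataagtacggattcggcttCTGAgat
SNORD27: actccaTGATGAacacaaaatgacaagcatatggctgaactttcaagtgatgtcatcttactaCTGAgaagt
SNORD12C: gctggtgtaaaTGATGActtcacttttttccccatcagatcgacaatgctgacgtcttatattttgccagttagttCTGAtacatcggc
Both exact boxes, searched within 20 bases of the ends, were found in 22.83% of 955 snoRNA transcripts of the annotation. Of all features counted, 95 of 990 snoRNA and scaRNA genes had any count. Of 12 listed RNAs without a poly(A) tail 9 were at 0, and the list summed to 5 and 10 counts in KO libraries and 3 and 3 counts in WT libraries. By GENCODE 29, 10 of the 14 small RNA genes lie wholly and 1 partly inside exons of their host. How reads there were assigned is not given in the sources used here, so the zeros do not measure the snoRNAs.

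Levels between genes were compared as CPM per kilobase of annotated exon, averaged over the 4 libraries. MALAT1 was first at 494, with libraries between 364 and 693, and GAS5 second at 60.7, with libraries between 46.4 and 71.7. SNHG8 at 24.1 and ZFAS1 at 21.4 followed, with ranges of 17.3 to 32.8 and 16.9 to 27.2 that did not separate them. SNHG6 at 9.39 and EPB41L4A-AS1 at 9.20 overlapped each other too, while SNHG1 at 6.31 overlapped SNHG6 and NEAT1, and NEAT1 at 3.86 overlapped SNHG5 at 2.98. KCNQ1OT1 was last at 0.203 per kilobase over its 91667 annotated bases. The per-length order placed NEAT1 below 7 of the other genes, but it depends on the length used. Every base annotated as exon in any form was counted, 22767 bases for NEAT1 and 3756 of the 3927 bases spanned by SNHG1. Which forms gave the reads was not tested, so the order is one of annotation as well as of level. The doubt about strand also holds for the levels of MALAT1 and EPB41L4A-AS1.

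For most of these genes, as for most tested genes, the gap between the WT libraries was larger than the difference between group means. A gap between single libraries varies more than a gap between means, so this share is no trait of these genes. In 7 of the 10 genes the log2 gap between the WT libraries exceeded the gap between the KO and WT means, as it did in 56.5% of all tested genes. The median log2 difference between replicates 2 and 1 was −0.30 in KO libraries and 0.43 in WT libraries for the nuclear RNAs. For the hosts it was −0.03 in KO libraries and −0.63 in WT libraries. WT replicate 2 was thus the highest of the 4 libraries for MALAT1, NEAT1 and SNHG5 and the lowest for GAS5, SNHG1, SNHG6 and SNHG8, and WT replicate 1 was the highest for 6 genes.

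**Figure D4:**
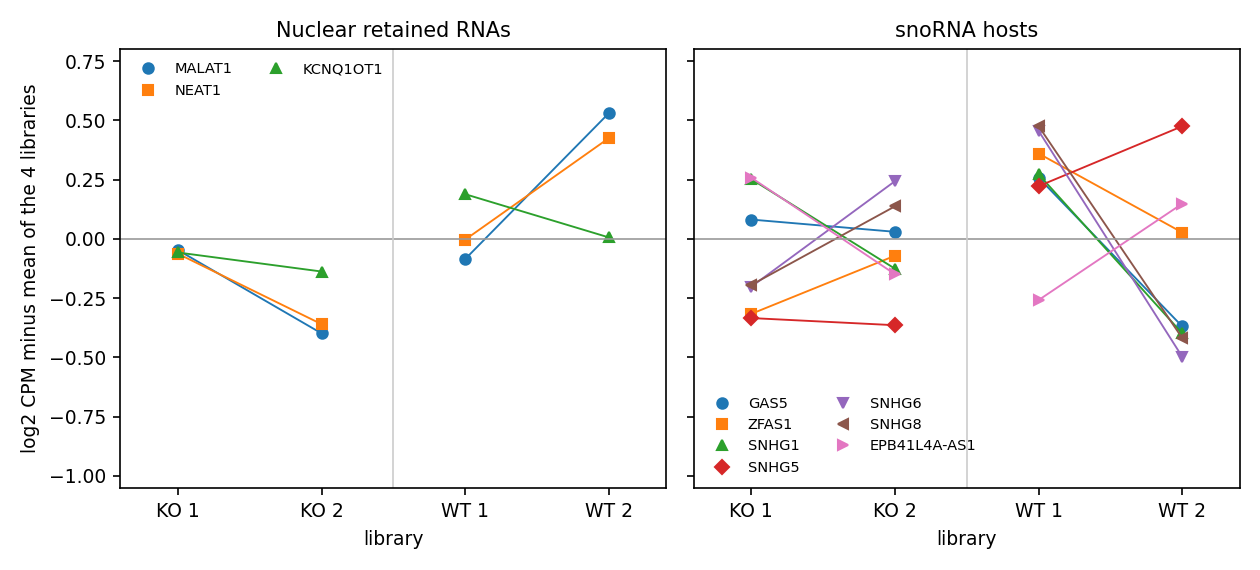
Log2 CPM of each gene (prior count 2) minus its mean over the 4 libraries, nuclear retained RNAs on the left and snoRNA hosts on the right, KO libraries left of WT libraries; lines join the libraries of 1 group and imply no order. MALAT1 and NEAT1 peak in WT replicate 2, where GAS5, SNHG1, SNHG6 and SNHG8 are at their lowest.

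Set against each other within a library, which needs no scaling, the nuclear RNAs and the hosts did not separate KO from WT libraries. The nuclear RNAs summed to 12074 and 10241 counts in KO libraries, against 9877 and 16833 counts in WT libraries, with MALAT1 the bulk of each sum. The hosts summed to 1056 and 1116 counts in KO libraries, against 1037 and 816 counts in WT libraries. The log2 quotient of nuclear to host counts averaged 3.36 in KO libraries and 3.81 in WT libraries, a difference of −0.45 against a replicate SD of 0.58. The difference was 0.10 without WT replicate 2, and without WT replicate 1 it was −1.01. With equal weight for each gene it was −0.25 against a replicate SD of 0.37, and 0.10 without WT replicate 2. With MALAT1 left out, the quotient was 0.273 and 0.233 in KO libraries, against 0.249 and 0.444 in WT libraries, so WT replicate 2 stood apart without MALAT1 as well.

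Other measures of the libraries differed as well. Genes of ribosomal proteins took 8.45% and 9.15% of counts in KO libraries, against 9.90% and 7.85% in WT libraries, and 69 of the 75 that were tested were lower in WT replicate 2 than in WT replicate 1. The mRNAs of mitochondrial DNA took 2.504% and 1.88% of counts in KO libraries, against 2.498% and 3.67% in WT libraries. Pseudogenes took 1.00% and 1.04% of counts in KO libraries, against 1.78% and 1.26% in WT libraries. The part of these measures in the values of the nuclear RNAs and hosts was not tested.

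**Figure D5:**
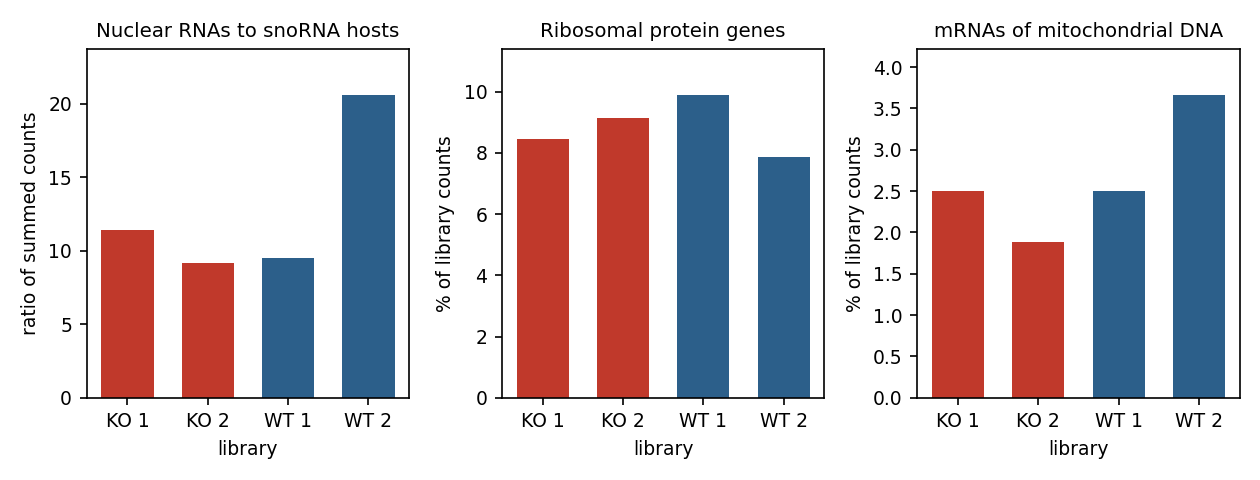
Summed counts of the nuclear retained RNAs divided by those of the snoRNA hosts (left), percent of library counts in ribosomal protein genes (middle) and in mRNAs of mitochondrial DNA (right), KO libraries in red left of WT libraries in blue. WT replicate 2 has the highest quotient (20.6), the lowest share of ribosomal protein genes (7.85%) and the highest share of mitochondrial mRNAs (3.67%).

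In the lists of genes around these RNAs edgeR called 0 members of each, where 0.328% of all tested genes were called. With so low a share, 0 calls in lists this short says little about their genes. The member with the smallest p is named below. Of 19 other non-coding snoRNA hosts 11 passed the filter, their median log2 fold change was 0.11, and SNHG30 gave 0.39 ± 0.23 (SE; adjusted p = 0.697). SNHG16, chosen after its values were seen because it had the most counts of them, had 1000 and 1063 CPM in KO libraries and 1037 and 940 CPM in WT libraries. Of 42 protein-coding hosts, mostly ribosomal protein and translation factor genes, 39 were tested, with a median of −0.08. EEF2, the elongation factor that moves the ribosome along, had 191 and 171 CPM in KO libraries, against 264 and 302 CPM in WT libraries (−0.65 ± 0.14, SE; adjusted p = 0.111 by edgeR). Of 18 other nuclear or chromatin-bound long RNAs 9 were tested, with a median of −0.04, and FIRRE, a repeat-rich RNA of the X chromosome, gave 0.25 ± 0.28.

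The proteins that build the snoRNA particles, speckles and paraspeckles and those that process or degrade these RNAs gave median log2 fold changes between −0.05 and 0.17. The 17 snoRNP proteins and assembly factors had a median of −0.01, with RUVBL1, a helicase of snoRNP assembly, at −0.73 ± 0.28 (SE; adjusted p = 0.481 by edgeR). The 16 tested paraspeckle proteins had a median of −0.05, with MATR3, a nuclear matrix protein, at −1.61 ± 0.57 (adjusted p = 0.441 by edgeR) from 8 and 4 counts in KO libraries and 11 and 21 counts in WT libraries. The 10 tested nuclear speckle proteins had a median of 0.17, with the splicing coactivator SRRM1 at 0.30 ± 0.14 (adjusted p = 0.593 by edgeR). The 13 tested factors of nonsense-mediated decay had a median of 0.11, with UPF2 at 0.32 ± 0.15 (adjusted p = 0.603 by edgeR).

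The 12 tested genes for MALAT1 processing and nuclear RNA turnover had a median of 0.03, with ZCCHC8, a subunit of the nuclear exosome targeting complex, at −0.56 ± 0.26 (SE; adjusted p = 0.595 by edgeR). The 14 tested neighbours of the 10 genes had a median of 0.05. Among them NREP, which lies near EPB41L4A-AS1, had 171 and 154 CPM in KO libraries, against 111 and 110 CPM in WT libraries (0.55 ± 0.14; adjusted p = 0.237 by edgeR). Both KO libraries of NREP lay above both WT libraries, while those of EPB41L4A-AS1 overlapped them.

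The genes whose profile over the 4 libraries was most like the mean of each class were found by the root mean square difference of centred log2 CPM. For the nuclear RNAs they were SLC4A7 (0.00784), B3GAT3 (0.0144) and EAF1 (0.0176). For the hosts they were ENSG00000303282.1 (0.0133), PUDP (0.0147) and ANKRD33B (0.0165). With only 4 libraries and 10670 genes to choose from, such closeness describes these libraries alone.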

How the data were processed

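For every library the authors deposited raw counts by gene, whole numbers with no normalization. The submitters' processing notes name hg38, STAR and HTSeq beside FastQC, Trimmomatic and DESeq2; which versions, annotation release, strand setting or filters applied is not given in the sources used here. The authors' deposited comparison table holds, per the file headers, a base mean (a signal: counts divided by size factors, averaged over libraries), a log2 fold change of KO over WT, its standard error and Wald score, and a p-value with its adjusted p-value; it was used only where it is named. Its direction was checked against the counts.

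The 10 genes and all lists were chosen with earlier results of these data known. Identifiers stripped of their version were looked up in a gene name list (61463 features) and in GENCODE 29 on GRCh38 (57288 features), which may not be the authors' annotation. Genes passing filterByExpr at a minimum count of 10 were TMM-scaled and fitted over all 4 libraries by genotype alone, with the robust quasi-likelihood test of edgeR 4.0.16 (R 4.3.3). P-values were adjusted by Benjamini-Hochberg over 10670 genes and called under 0.05. The test was checked on simulated counts that held known changes. Where a gene was set to differ by a factor of 1.5, it was called in 7.46% of cases. At a factor of 2 the share rose to 49.3%, and at a factor of 4 to 90.9%. Among 106 calls 8 were false. In other lists up to 4 called members are named or, with none called, the 1 with the smallest p; any further name was picked with its values in view. Totals of 2476471 to 3202039 counts limit the precision of genes with few counts, and Wilson intervals cover counting error only. Chi-square over its degrees of freedom came to 3.48 between KO libraries and 3.15 between WT libraries, so no library repeats another. Alternatives were other scalings, no filter, DESeq2 1.42.0, a replicate block and leaving out each library. Promoter stretches come from RefSeq, which held an entry for 7 of the 10 genes.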

Additional observations from a re-analysis of the deposited data

How the results depend on the processing

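None of the 10 genes was called under any of the 10 alternatives. MALAT1, NEAT1, KCNQ1OT1, ZFAS1 and SNHG5 had a log2 fold change below 0 in each of them, and the smallest adjusted p by edgeR was 0.0818, for MALAT1 without the filter on low counts. Leaving out 1 library moved MALAT1 between −0.74 (without WT replicate 1) and −0.16 (without WT replicate 2), NEAT1 between −0.63 and −0.24, KCNQ1OT1 between −0.33 and −0.11, and ZFAS1 between −0.59 and −0.22. It changed the sign of GAS5 (−0.24 without WT replicate 2), SNHG1 (−0.24 without WT replicate 2, −0.13 without KO replicate 1), SNHG6 (0.58 without WT replicate 1, 0.18 without KO replicate 1), SNHG8 (0.42 without WT replicate 1, 0.02 without KO replicate 1) and EPB41L4A-AS1 (−0.08 without WT replicate 1, −0.15 without KO replicate 1). The fold change of SNHG6 lies at 0 and took either sign between scalings. Without WT replicate 2, 9 of the 10 genes lay below 0, and without WT replicate 1 it was 6, against 7 with all libraries. The log2 quotient of nuclear to host counts changed sign without WT replicate 2 (0.10).

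Over all genes, 5 were higher and 30 lower in KO libraries. Without the filter the counts were 31 and 125, and with the replicate number as a block 29 and 111. Leaving out 1 library gave 1 to 25 higher and 3 to 164 lower genes, with the lone library of a group assumed to vary like the other group. The lower count was 164 without KO replicate 2, 80 without KO replicate 1, 13 without WT replicate 2 and 3 without WT replicate 1. The cause was not tested. Other scalings and DESeq2 kept both counts within 1.5 times. The replicate numbers share only a number: deviations of same-numbered libraries from their group means correlated at −0.04 over 10670 genes, and with 2 numbers nothing pairs them. Depth limits the hosts with under 50 counts per library: the 95% interval of the fold runs from 0.497 to 2.01 for SNHG6 and from 0.339 to 1.02 for SNHG5. The SE of SNHG6 was smaller under other scalings.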
